A study of Mus musculus with 27 samples.

Results

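Mov10, the helicase of microRNA-guided silencing, was examined with 9 of its partners: the 4 Argonautes (Ago1, Ago2, Ago3, Ago4), the 3 Tnrc6 scaffolds (Tnrc6a, Tnrc6b, Tnrc6c), the microRNA-processing nuclease Dicer1 and the RNA helicase Upf1. The genes were taken by symbol from the 53379 gene IDs of the deposited expression table, and all 10 were found there. Mov10 was selected on its TPM, which was lower after depletion of Ptbp1. The comparison that chose it is not recorded and is taken here to be siPTBP1 against control in cytoplasm. Its values in all comparisons are therefore a description and carry no test. The 9 partners were chosen by their known roles.

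The study measured polyadenylated RNA in E14 mouse embryonic stem cells, 1 line that was kept undifferentiated with LIF. Cells received siRNA against Ptbp1 (siPTBP1), siRNA against Ptbp1 and Ptbp2 together (the double knockdown), or siRNA against GFP (siGFP) as control. They were transfected again after 24 h, harvested at 48 h and separated into cytoplasm, nucleoplasm and chromatin, with 3 libraries for each of the 9 groups. Ptbp1 encodes the polypyrimidine tract binding protein, which represses alternative exons, and Ptbp2 the paralog that prevails in neurons. All groups share the E14 genotype and the transfection, and siRNA leaves part of the target RNA in place.

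In animals a microRNA that Dicer has cut from its precursor is loaded into an Argonaute protein, which finds partly complementary sites in messenger RNAs. Argonaute then binds a TNRC6 (GW182) protein, which recruits the CCR4-NOT and PAN2-PAN3 deadenylases and so represses and destabilises the message. MOV10 is an RNA helicase that associates with Argonaute and with UPF1, the central helicase of nonsense-mediated decay, moves along 3′ untranslated regions, and restrains retroelements such as LINE-1.

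Mov10 lies on chromosome 3 (mm10, chr3:104794836-104818563, minus strand), spans 21 exons in its longest annotated transcript and overlaps no other annotated gene. A second Mov10 window, inside the annotated gene, also held no match and is not shown. Tnrc6b, the other gene of the set whose libraries separated from siGFP throughout, lies on chromosome 15 (chr15:80711313-80941085, plus strand), with a microRNA gene, Mir5113, and a noncoding gene inside it on the same strand. Ago2 and Upf1 overlap genes on the other strand (Chrac1 for Ago2, Cers1 and Gdf1 for Upf1), and no source used here says whether strand entered the authors' quantification. The 250 bases before their annotated starts are shown from RefSeq (GRCm38.p6), since these genes differed in opposite directions. They are printed 5′ to 3′ on the strand of the gene, with capitals marking matches to the motifs searched. The Mov10 window is chr3:104818564-104818813. The windows of Tnrc6b are chr15:80711063-80711312, upstream of the first start, and chr15:80798360-80798609, upstream of an internal start.
Mov10: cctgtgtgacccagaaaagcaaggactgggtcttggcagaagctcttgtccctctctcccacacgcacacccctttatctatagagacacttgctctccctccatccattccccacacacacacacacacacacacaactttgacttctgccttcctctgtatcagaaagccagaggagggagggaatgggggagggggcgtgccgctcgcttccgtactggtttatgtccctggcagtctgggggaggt
Tnrc6b, first start: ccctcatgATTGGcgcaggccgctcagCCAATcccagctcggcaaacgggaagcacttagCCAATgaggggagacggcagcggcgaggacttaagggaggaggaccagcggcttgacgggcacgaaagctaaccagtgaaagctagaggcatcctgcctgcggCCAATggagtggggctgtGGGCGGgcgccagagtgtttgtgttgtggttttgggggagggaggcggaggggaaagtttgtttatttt
Tnrc6b, internal start: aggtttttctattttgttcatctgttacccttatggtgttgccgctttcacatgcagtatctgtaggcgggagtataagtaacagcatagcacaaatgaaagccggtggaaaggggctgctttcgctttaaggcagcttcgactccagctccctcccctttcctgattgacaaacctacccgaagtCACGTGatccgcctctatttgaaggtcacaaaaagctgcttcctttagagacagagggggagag

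The motifs were searched on both strands, and no 2 of the matches shown overlap. The searched motifs were the interferon-stimulated response element (in 2.98% of 32851 windows of this length), the STAT site (TTCNNNGAA, 7.02%), the GC box (GGGCGG, 32.7%), the CCAAT box (CCAAT, 33.8%), the TATA box (TATAAA, 12.4%) and the E-box (CACGTG, 6.02%). None of these letters occurred in the Mov10 window, which had a GC content of 56.0% and 5 CpG dinucleotides, against medians of 52.4% and 6 over all windows. The first Tnrc6b window held 4 CCAAT boxes, a count reached in 0.84% of windows, together with 1 GC box. The count of 4 was taken from this window, so its share is a description and not a test. The internal Tnrc6b window held 1 E-box. A match is a description of these letters and not evidence that a factor binds there. The partners with a window other than Tnrc6b were Ago1, Ago3, Ago4, Tnrc6a, Tnrc6c, Dicer1 and Upf1, and neither an interferon-stimulated response element nor a STAT site occurred in any window of the set.

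Values are TPM, which the authors scaled for transcript length and to a fixed library total, so levels of different genes can be set side by side; the depth behind them is unknown. Between 11837 and 19509 genes reached 1 TPM in a library. The targeted gene followed the labels, although on chromatin its difference was called only with replicate number as a term of the fit (replicate block). Ptbp1 averaged 22.4% of its siGFP level after siPTBP1 and 25.9% after the double knockdown in cytoplasm, 26.7% and 27.2% in nucleoplasm, and 47.2% and 55.8% on chromatin. Fitted with limma on log2(TPM + 1) over all genes, the siPTBP1 differences were -2.15 in cytoplasm (adjusted p = 0.000853), -1.89 in nucleoplasm (0.00375) and -1.05 on chromatin (0.16, 0.00541 with the block). The double-knockdown difference on chromatin was -0.82 (adjusted p = 0.367, 0.0303 with the block). Ptbp2 was at 48.0% of siGFP in cytoplasm after the double knockdown, 57.6% in nucleoplasm and 81.4% on chromatin, with an adjusted p of 1 in each. With the block the Ptbp2 differences were called in cytoplasm (adjusted p = 0.00113) and nucleoplasm (0.00714) but not on chromatin (0.587). All 8 embryonic stem cell markers examined were present in every library, with a summed level of 1520 to 3814 TPM after siPTBP1, 1475 to 3721 TPM after the double knockdown and 2115 to 4342 TPM in siGFP. Endoderm markers summed to 3.58 to 6.42 TPM after siPTBP1, 3.84 to 7.28 TPM after the double knockdown and 1.69 to 4.46 TPM in siGFP. Other lists summed higher in siGFP, at 67.5 to 207.5 TPM for neuron and 31.8 to 955.8 TPM for trophoblast markers. Fibroblast markers summed to 10.5 to 159.2 TPM there and muscle markers to 6.4 to 23.7 TPM. For each list the knockdown ranges overlapped that of siGFP. The part of cells with these markers in the results was not tested. Libraries with the same replicate number deviated together from their group means, and number 1 often differed from 2 and 3, so results are also given without it. In bulk RNA of this kind a loss of RNA in each cell and a loss of the cells that hold it cannot be told apart.

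Mov10 RNA was lower in every knockdown library than in any siGFP library of the same fraction. In cytoplasm it stood at 30.6, 27.3 and 20.4 TPM after siPTBP1 and at 47.2, 26.8 and 20.1 TPM after the double knockdown, against 86.96, 107.7 and 91.7 TPM in siGFP. In nucleoplasm the values were 30.8, 23.4 and 16.6 TPM after siPTBP1 and 35.2, 19.5 and 19.1 TPM after the double knockdown, against 86.3, 70.5 and 69.8 TPM in siGFP. The groups did not overlap in either of these fractions, and the replicate 1 library was the highest of each knockdown group. On chromatin Mov10 had 52.2, 45.2 and 39.8 TPM after siPTBP1 and 72.2, 45.3 and 47.3 TPM after the double knockdown, against 157.9, 85.6 and 93.7 TPM in siGFP. The siGFP library of replicate 1 was far above the other two there, yet no knockdown library reached the lowest siGFP library.

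The mean Mov10 level after siPTBP1 was 26.1 ± 5.19 TPM in cytoplasm, 27.3% of the 95.5 ± 10.9 TPM of siGFP (SD, n = 3 each). The double knockdown averaged 31.4 ± 14.1 TPM there, or 32.9% of siGFP. In nucleoplasm siPTBP1 cells averaged 23.6 ± 7.10 TPM and double-knockdown cells 24.6 ± 9.17 TPM, against 75.5 ± 9.34 TPM in siGFP. On chromatin the averages were 45.7 ± 6.22 TPM after siPTBP1 and 54.9 ± 15.0 TPM after the double knockdown, against 112 ± 39.6 TPM in siGFP, so that 40.7% and 48.9% of the siGFP level were present. Mov10 and Ptbp1 thus both showed their smallest difference on chromatin.

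On the log2(TPM + 1) scale, Mov10 differed from siGFP by -1.85 in cytoplasm, -1.67 in nucleoplasm and -1.23 on chromatin after siPTBP1. After the double knockdown the differences were -1.66 in cytoplasm, -1.63 in nucleoplasm and -0.997 on chromatin. Each of the 18 pairs of libraries with the same replicate number had the lower value in the knockdown. Here and below, each siGFP library serves in the pairs of both knockdowns, and fractions share replicate numbers. The 18 pairs are therefore not independent replicates, and the share of all genes with such counts was not determined. Of the 20611 genes tested, 15 (0.0728%) lay below siGFP without overlap in all 6 comparisons of a knockdown with siGFP, and 40 (0.194%) lay above it. Mov10 was 1 of the 15, and it was chosen for a lower level. Without the replicate 1 libraries the differences were -2.03, -1.78 and -1.06 after siPTBP1 and -2.05, -1.81 and -0.94 after the double knockdown, in cytoplasm, nucleoplasm and chromatin.

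**Figure D1:**
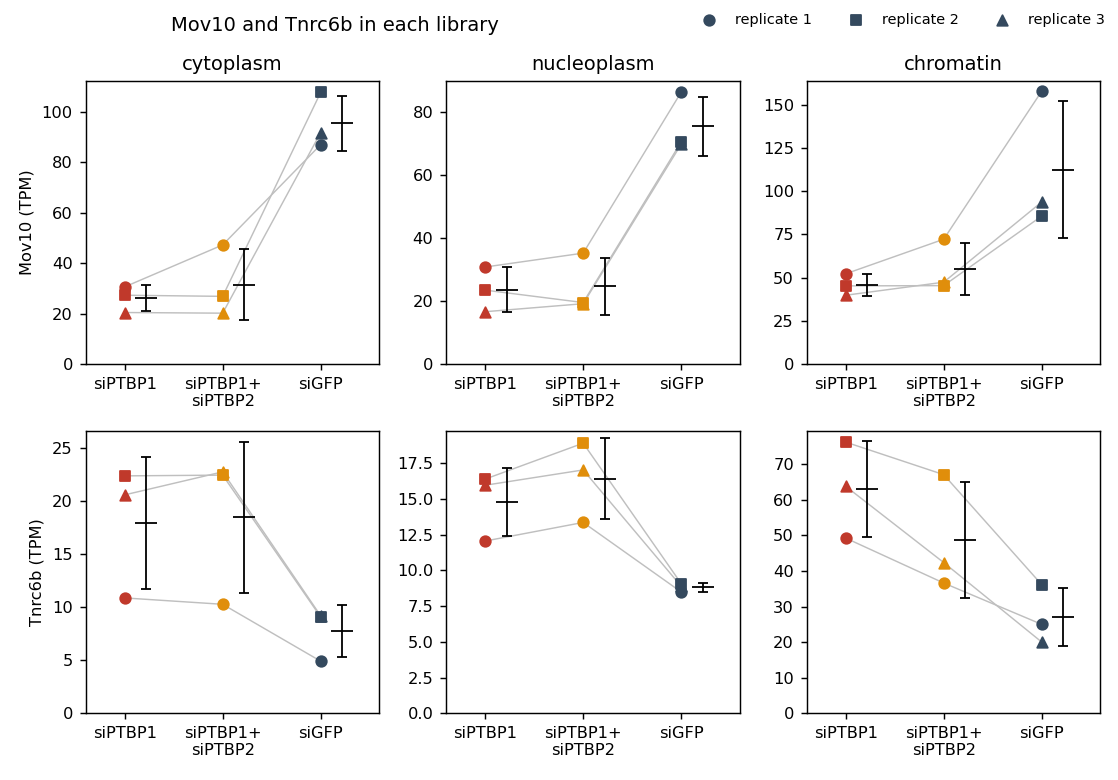
TPM of Mov10 (upper row) and Tnrc6b (lower row) in each library, by treatment and fraction; marker shape gives the replicate number, grey lines join libraries of the same number, and black bars show the mean ± SD of 3 libraries. Mov10 lies below siGFP and Tnrc6b above it in all 18 same-number pairs; the vertical scale differs between panels.

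For the added Ptbp2 siRNA, Mov10 gave differences of the double knockdown minus siPTBP1 of 0.19 in cytoplasm, 0.04 in nucleoplasm and 0.24 on chromatin on the log2(TPM + 1) scale. Its libraries of the 2 treatments overlapped in all 3 fractions. The cytoplasmic siPTBP1 libraries belong to the comparison taken as the one that chose Mov10, and no test of it is given here for any fraction. None of the 9 partners was called in any of these 3 comparisons by limma, and none had an unadjusted p under 0.05. The share of all genes called was 0% in cytoplasm, where 147 genes had an unadjusted p under 0.05, 0.00485% in nucleoplasm and 0.107% on chromatin (with the replicate block 0.00485%, 0.00485% and 0.0825%).

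Among the partners, none was called by limma in any of the 5 knockdown comparisons other than siPTBP1 in cytoplasm. A gene was called at an adjusted p under 0.05, and the share of all genes called was 0.243% for the double knockdown in cytoplasm, 0.16% for siPTBP1 and 0.155% for the double knockdown in nucleoplasm, and 0.398% for siPTBP1 and 0.427% for the double knockdown on chromatin. In the same order, 1, 0, 1, 1 and 2 of the 9 partners had an unadjusted p under 0.05: Tnrc6b in each of those 4 comparisons, and Tnrc6c once. For siPTBP1 in cytoplasm, the comparison taken as the one that chose Mov10, 0 of 9 partners were called, 2 had an unadjusted p under 0.05 and 0.228% of all genes were called; nothing is read from that count. With the replicate block, the shares were 1.83% for siPTBP1 in cytoplasm, 2.65% for the double knockdown in cytoplasm, 1.88% for siPTBP1 and 1.84% for the double knockdown in nucleoplasm, and 2.45% and 2.12% for these treatments on chromatin, and 1 partner, Tnrc6b, was called in all of these but siPTBP1 in nucleoplasm; nothing is read from siPTBP1 in cytoplasm here either.

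The Argonautes bind the microRNA itself, and AGO2 is the member able to cut a fully matched target. Ago1 in cytoplasm had 22.5, 30.5 and 26.4 TPM after siPTBP1 and 20.6, 27.6 and 26.2 TPM after the double knockdown, against 14.2, 24.96 and 21.7 TPM in siGFP. Ago2 in cytoplasm had 23.0, 34.5 and 28.01 TPM after siPTBP1 and 20.7, 32.4 and 28.8 TPM after the double knockdown, against 14.7, 28.3 and 22.8 TPM in siGFP. Both genes overlapped between the groups, with the replicate 1 libraries lowest in every treatment.

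Within same-number pairs, which are not independent, Ago1 was higher in the knockdown in 17 of 18, and Ago2 likewise in 17 of 18. The differences were small and not called. For the double knockdown in cytoplasm they were 0.30 for Ago1 (95% interval -0.09 to 0.69, limma adjusted p = 1) and 0.33 for Ago2 (-0.23 to 0.88, adjusted p = 1). In nucleoplasm the means of Ago1 were 25.3 ± 2.91 TPM after siPTBP1, 26.1 ± 1.47 TPM after the double knockdown and 24.8 ± 1.80 TPM in siGFP. On chromatin Ago1 averaged 85.9 ± 13.3 TPM after siPTBP1 and 89.9 ± 4.71 TPM after the double knockdown, against 74.4 ± 7.31 TPM in siGFP. There the 3 double-knockdown libraries all exceeded siGFP, but the difference of 0.27 was not called (adjusted p = 1). Ago2 on chromatin was split by replicate instead, with 70.6, 46.7 and 41.9 TPM after siPTBP1 and 79.3, 45.1 and 46.6 TPM after the double knockdown, against 55.3, 35.3 and 41.0 TPM in siGFP. The replicate 1 library was the highest Ago2 library of each chromatin group.

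Ago3 and Ago4, which lie beside Ago1 on chromosome 4, were scarce. Ago3 ranged from 1.13 to 4.38 TPM over the 9 cytoplasmic libraries and from 4.26 to 11.3 TPM over the 9 chromatin libraries, and it was higher in 11 and lower in 7 of 18 same-number pairs. Ago4 stayed below 1 TPM in all 9 libraries of cytoplasm and of nucleoplasm and passed the filter on low values through 5 chromatin libraries. On chromatin Ago4 had 1.15, 1.54 and 0.95 TPM after siPTBP1 and 0.50, 1.80 and 0.77 TPM after the double knockdown, against 1.34, 3.07 and 0.44 TPM in siGFP, a spread within siGFP that covered all the knockdown libraries.

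The Tnrc6 scaffolds, which carry the contact from Argonaute to the deadenylases, did not all differ from siGFP in the same direction. Tnrc6b in cytoplasm had 10.9, 22.4 and 20.6 TPM after siPTBP1 and 10.3, 22.5 and 22.8 TPM after the double knockdown, against 4.92, 9.09 and 9.20 TPM in siGFP. In nucleoplasm it had 12.1, 16.4 and 15.95 TPM after siPTBP1 and 13.4, 18.9 and 17.0 TPM after the double knockdown, against 8.49, 9.08 and 8.89 TPM in siGFP. In both fractions every knockdown library lay above every siGFP library.

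Tnrc6b on chromatin had 49.3, 76.2 and 63.8 TPM after siPTBP1 and 36.6, 67.1 and 42.4 TPM after the double knockdown, against 25.03, 36.2 and 20.1 TPM in siGFP. The gap between the groups was narrowest for the double knockdown, where the lowest library exceeded the highest siGFP library only slightly. All 18 same-number pairs were higher in the knockdown and none of the 6 comparisons overlapped; of all genes, 9.17% were above siGFP without overlap for siPTBP1 in cytoplasm and 5.08% for siPTBP1 in nucleoplasm, with 6.91%, 5.11%, 5.87% and 5.39% for the double knockdown in cytoplasm and nucleoplasm and for siPTBP1 and the double knockdown on chromatin. The shares below siGFP without overlap were 2.18% for siPTBP1 and 2.28% for the double knockdown in cytoplasm, 4.67% and 5.57% in nucleoplasm, and 1.81% and 1.67% on chromatin. Tnrc6b was 1 of the 40 genes above siGFP in all 6.

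Whether Tnrc6b passed the test depended on how the replicates entered it and on the scaling of the libraries. On the log2(TPM + 1) scale the double knockdown minus siGFP was 1.12 in cytoplasm (95% interval 0.45 to 1.80), with a limma adjusted p of 0.271 and of 0.00295 with the replicate block. In nucleoplasm it was 0.81 (0.14 to 1.49), with an adjusted p of 0.746 and of 0.0395 with the block. On chromatin siPTBP1 minus siGFP was 1.21 (0.53 to 1.88), adjusted p = 0.129 and 0.00233 with the block. The double knockdown there gave 0.82 (0.14 to 1.49), adjusted p = 0.476 and 0.0351 with the block. For siPTBP1 in nucleoplasm the difference of 0.67 passed neither fit (adjusted p = 1 and 0.0967 with the block). Without the replicate 1 libraries, limma called Tnrc6b for siPTBP1 on chromatin (1.34, adjusted p = 0.0268) but not for the double knockdown in cytoplasm (1.22, adjusted p = 0.0591). With median-ratio scaling limma called it for the double knockdown in cytoplasm (adjusted p = 0.00906) and for siPTBP1 on chromatin (0.0262). With quantile normalization limma called it for siPTBP1 on chromatin (adjusted p = 0.0139) but not for the double knockdown in cytoplasm (0.074).

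Tnrc6a had lower means than siGFP outside chromatin, without being called. In cytoplasm it had 6.63, 12.4 and 13.4 TPM after siPTBP1 and 4.19, 12.7 and 14.5 TPM after the double knockdown, against 7.27, 17.8 and 21.1 TPM in siGFP. Its values overlapped between treatments, and the double knockdown minus siGFP was -0.55 (95% interval -1.39 to 0.29, limma adjusted p = 1). On chromatin Tnrc6a averaged 126.0 ± 24.6 TPM after siPTBP1 and 131 ± 34.2 TPM after the double knockdown, against 120 ± 35.1 TPM in siGFP. Tnrc6c was higher in 17 of 18 same-number pairs and separated from siGFP on chromatin, where it had 31.1, 37.7 and 29.6 TPM after siPTBP1 and 35.6, 35.8 and 33.9 TPM after the double knockdown, against 26.9, 27.5 and 24.8 TPM in siGFP; the double-knockdown difference of 0.40 was not called (adjusted p = 0.591, 0.137 with the block).

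Dicer1 and Upf1 were not called in any comparison with siGFP, and both had lower means in the nucleoplasm of knockdown cells, as did Tnrc6a. The lists of microRNA biogenesis and nonsense-mediated decay genes described below also had negative median differences there. These were -0.22 and -0.22 after siPTBP1 and -0.26 and -0.26 after the double knockdown. Dicer1 in nucleoplasm had 30.01, 43.7 and 42.3 TPM after siPTBP1 and 29.7, 39.6 and 39.9 TPM after the double knockdown, against 43.7, 46.2 and 48.9 TPM in siGFP. The double-knockdown libraries all lay below siGFP there, as did those of 5.57% of all genes, and the difference of -0.35 was not called (limma adjusted p = 1, 0.543 with the block). In cytoplasm and on chromatin the Dicer1 libraries of the groups overlapped. Upf1 in nucleoplasm had 85.4, 53.97 and 59.9 TPM after siPTBP1 and 82.4, 51.8 and 60.1 TPM after the double knockdown, against 87.9, 67.95 and 75.5 TPM in siGFP. Its groups overlapped there, although each of the same-number pairs in nucleoplasm was lower in the knockdown; the differences were -0.23 after siPTBP1 (adjusted p = 1, 0.615 with the block) and -0.27 after the double knockdown (adjusted p = 1, 0.48 with the block). Upf1 averaged 93.3 ± 5.11 TPM in cytoplasm after siPTBP1 and 99.4 ± 5.25 TPM after the double knockdown, against 90.3 ± 9.82 TPM in siGFP, and it was higher in 6 and lower in 12 of 18 same-number pairs over the fractions.

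**Figure D2:**
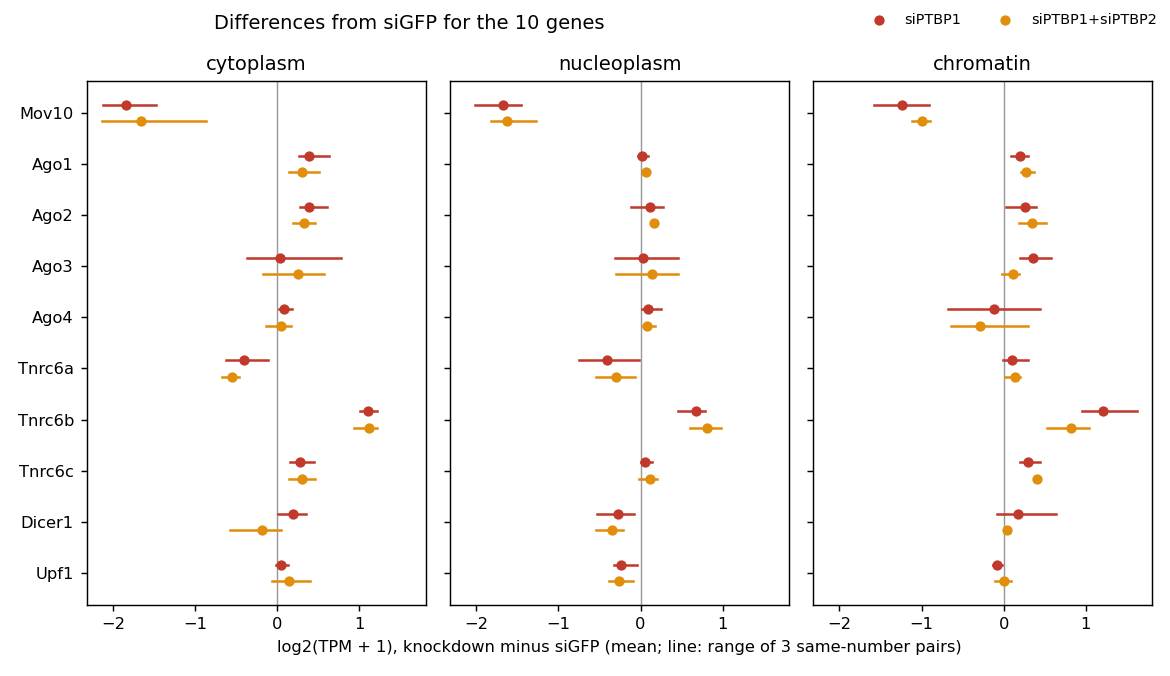
Difference from siGFP in log2(TPM + 1) for the 10 genes in each fraction; points are the means over 3 libraries and lines span the 3 same-number pairs. Mov10 lies between -1.85 and -0.997 and Tnrc6b between 0.67 and 1.21, while the means of the other genes lie closer to 0.

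For each knockdown comparison, the median difference of the 9 partners was 0.19 after siPTBP1 and 0.25 after the double knockdown in cytoplasm, 0.03 and 0.08 in nucleoplasm, and 0.20 and 0.14 on chromatin. The median over all genes tested was 0.06 and 0 in cytoplasm, -0.01 and -0.01 in nucleoplasm, and 0.09 and 0.07 on chromatin. Between 6 and 8 of the 9 partners had a positive difference in each comparison, although only Tnrc6b had a mean difference above 0.5.

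The amounts of these RNAs relative to each other therefore differed between treatments. The 4 Argonautes together amounted to 57.4 ± 10.9 TPM in cytoplasm after siPTBP1 and 55.1 ± 10.9 TPM after the double knockdown, against 44.5 ± 12.4 TPM in siGFP. Mov10 per summed Argonaute TPM was 0.653, 0.398 and 0.358 in cytoplasm after siPTBP1 and 1.10, 0.425 and 0.338 after the double knockdown, against 2.82, 1.96 and 1.92 in siGFP. The replicate 1 library gave the highest ratio in each treatment, and no knockdown library reached the lowest siGFP library. On chromatin the mean ratio was 0.305 ± 0.0257 after siPTBP1 and 0.349 ± 0.0625 after the double knockdown, against 0.881 ± 0.304 in siGFP. Mov10 per Upf1 TPM in cytoplasm was 0.281 ± 0.0671 after siPTBP1 and 0.312 ± 0.126 after the double knockdown, against 1.06 ± 0.0579 in siGFP. These ratios contain Mov10 and so carry no test.

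The summed Tnrc6 level in nucleoplasm was 51.2 ± 9.90 TPM after siPTBP1 and 55.0 ± 8.24 TPM after the double knockdown, against 52.0 ± 3.38 TPM in siGFP, while its make-up differed. Tnrc6b made up 29.9%, 27.5% and 29.7% of it after siPTBP1 and 29.3%, 31.2% and 28.9% after the double knockdown, against 17.5%, 17.3% and 16.1% in siGFP. In cytoplasm the Tnrc6b share averaged 42.1% ± 3.79 after siPTBP1 and 43.0% ± 2.78 after the double knockdown, against 23.1% ± 1.29 in siGFP. The Tnrc6a share there averaged 25.4% ± 2.50 after siPTBP1 and 23.3% ± 6.20 after the double knockdown, against 43.7% ± 7.12 in siGFP. Within the replicate spread, the make-up of the Argonautes differed little: Ago1 took 46.3% ± 1.83 of their sum in cytoplasm after siPTBP1, 45.3% ± 2.45 after the double knockdown and 45.6% ± 0.372 in siGFP.

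**Figure D3:**
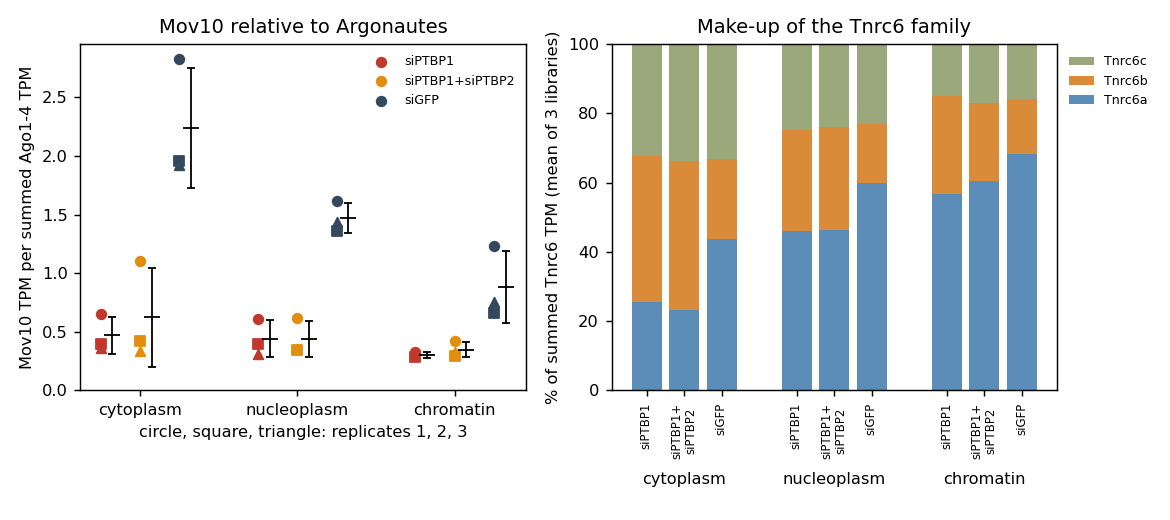
Left, Mov10 TPM divided by the summed TPM of Ago1 to Ago4 in each library, with mean ± SD of 3 libraries, ordered by treatment within each fraction. Right, mean share of Tnrc6a, Tnrc6b and Tnrc6c in the summed Tnrc6 TPM; Tnrc6b takes 42.1% and 43.0% in the cytoplasm of knockdown cells and 23.1% in siGFP.

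In control cells the TPM of the 10 genes differed between fractions to unequal degrees. Since TPM has the same total in each library, it does not show how the RNA of a gene is divided between fractions. Tnrc6a had the largest difference between chromatin and cytoplasm, with 80.0, 145.9 and 133.7 TPM on chromatin against 7.27, 17.8 and 21.1 TPM in cytoplasm. Ago1 had 67.6, 82.1 and 73.5 TPM on chromatin against 14.2, 24.96 and 21.7 TPM in cytoplasm. Mov10 had similar TPM in both, and its chromatin libraries (157.9, 85.6 and 93.7 TPM) overlapped the cytoplasmic ones (86.96, 107.7 and 91.7 TPM). Tnrc6a, Ago1, Ago2, Ago3, Tnrc6b, Tnrc6c and Upf1 separated chromatin from cytoplasm without overlap, whereas Dicer1 and Ago4 did not. The share of all genes that separated so is not given here, and nothing particular to these genes is read from it.

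Chromatin minus cytoplasm in siGFP was 2.96 for Tnrc6a (limma adjusted p = 1.91e-06) and 1.86 for Ago1 (3.36e-08) on the log2(TPM + 1) scale. With Ago2, Ago3, Ago4, Tnrc6b, Tnrc6c and Upf1, 8 of the 9 partners were called, all higher on chromatin, where 66% of all genes were called and 57.9% were called as higher (76.9% called with the block). Ago4 had passed the filter on low values only through chromatin libraries, so its call is not read here or against nucleoplasm, which leaves 7 of the other 8. Dicer1 was not called by the main fit (0.55, adjusted p = 0.142). It was called as higher with the replicate block (0.0361) and without all replicate 1 libraries (0.37, limma adjusted p = 0.014). Without the cytoplasmic siGFP library of replicate 1 alone, its difference was 0.25 (adjusted p = 0.551). Mov10 gave 0.19, a value with no test. The median of all genes was 0.95 in this comparison. Relative to that median, Tnrc6a lay 2.00 above and Mov10 0.77 below. Under median-ratio scaling of the libraries 5 were called. They were Ago1, Tnrc6a and Tnrc6b as higher on chromatin, Dicer1 as lower (-0.50, adjusted p = 0.0334), and Ago4, whose call is again not read. Under quantile normalization 2 were called, Tnrc6a and Ago1, which were higher on chromatin under each scaling, whereas Ago2 and Dicer1 had the opposite sign under both.

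Chromatin minus nucleoplasm gave the same 8 called partners of 9, Ago4 among them, all higher on chromatin, where 51.5% of all genes were called and 46% were called as higher (67% called with the block). Mov10 gave 0.52 there, a value with no test, and had a negative difference under both other scalings. Nucleoplasm minus cytoplasm gave 0 of the 9 partners by limma, with 1 unadjusted p under 0.05, where 12.8% of all genes were called. That gene was Tnrc6a, with 28.03, 30.6 and 34.98 TPM in nucleoplasm against 7.27, 17.8 and 21.1 TPM in cytoplasm; the difference of 1.09 had an adjusted p of 0.0882, and of 0.000169 with the replicate block, for which 28.3% of all genes were called. Without the cytoplasmic siGFP library of replicate 1 it was 0.65 (adjusted p = 0.474). The order of mean levels in siGFP cytoplasm was Mov10, Upf1, Dicer1, Ago2, Ago1, Tnrc6a, Tnrc6c, Tnrc6b, Ago3 and Ago4, and of neighbours in that order only Upf1 and Dicer1, Tnrc6b and Ago3, and Ago3 and Ago4 had libraries that did not overlap. After siPTBP1, the mean cytoplasmic levels of Upf1, Dicer1, Ago2 (28.5 TPM) and Ago1 (26.5 TPM) were all above that of Mov10 (26.1 TPM), with the libraries of both Argonautes overlapping those of Mov10. The difference of the knockdown effect between fractions was not called for any partner, and no partner had an unadjusted p under 0.05 in it; of all genes, 0.0437%, 0.00485% and 0.0582% were called for siPTBP1 (chromatin against cytoplasm, nucleoplasm against cytoplasm, chromatin against nucleoplasm) and 0.0582%, 0.00485% and 0.034% for the double knockdown.

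**Figure D4:**
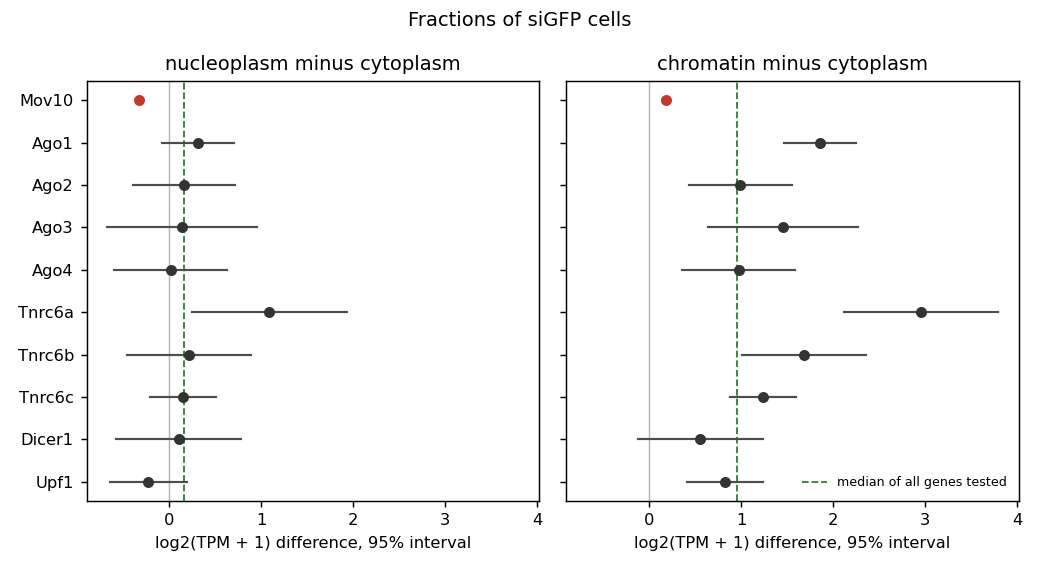
Difference between fractions of siGFP cells in log2(TPM + 1), with 95% intervals from limma over 3 libraries a group for the partners and a point alone for Mov10; the dashed line is the median of all genes tested. Mov10 lies to the left of that line in both panels, and Tnrc6a to the right of it.

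The genes around Mov10 gave no call. Of 12 other annotated genes within 100 kb, 6 were tested: Ppm1j, Rhoc, Capza1, St7l, Gm42658 and Gm42659. None was called by limma in any of the 6 knockdown comparisons, with or without the replicate block, and none had an unadjusted p under 0.05. Rhoc, a small GTPase gene that converges on Mov10 from 377 bp away, had 84.4, 92.3 and 71.5 TPM in cytoplasm after siPTBP1 and 123.6, 94.6 and 79.3 TPM after the double knockdown, against 73.5, 84.7 and 58.1 TPM in siGFP. Capza1, an actin capping gene on the other side, had 8.19, 29.1 and 31.9 TPM after siPTBP1 and 4.17, 31.0 and 32.4 TPM after the double knockdown, against 8.61, 23.6 and 25.5 TPM in siGFP, with the replicate 1 libraries low in every treatment. Over the 18 same-number pairs Mov10 stood at 21.95% to 54.3% of siGFP, whereas Ppm1j stood at 69.5% to 140%, Rhoc at 75.5% to 168% and Capza1 at 48.4% to 162%. St7l stood at 79.1% to 304% with a median of 137%, and it was higher in the knockdown in 17 of the 18 pairs without being called.

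**Figure D5:**
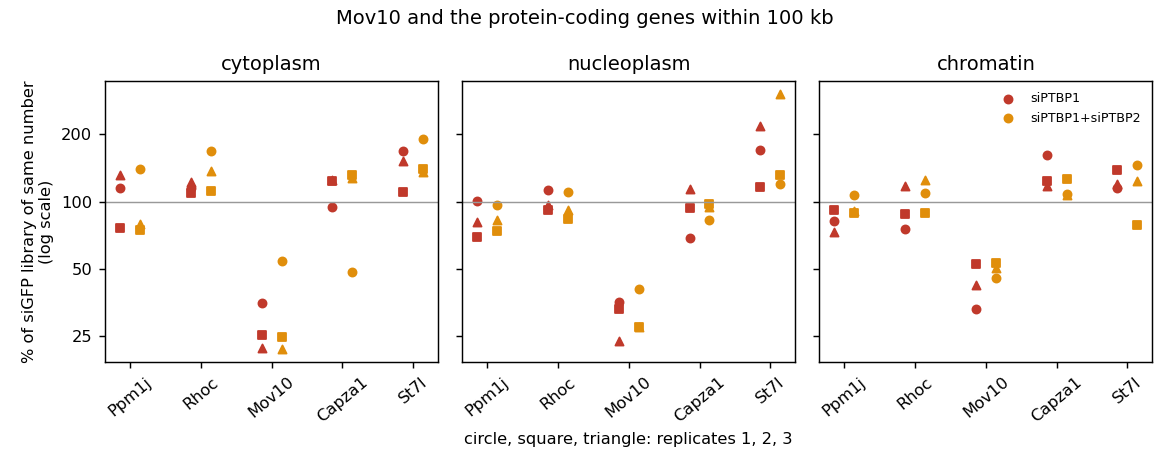
Level of Mov10 and of the tested protein-coding genes within 100 kb, in genomic order, as a percentage of the siGFP library with the same replicate number, on a log axis. Mov10 lies at 21.95% to 54.3%, and 1 other value, Capza1 at 48.4% in a double-knockdown library, lies below 54.3%.

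Pearson's correlation with Mov10 was taken over the 27 libraries, on log2(TPM + 1) centred within each fraction. It covered the 9902 tested genes that averaged 5 TPM or more, after genes with predicted, clone or pseudogene names were left out. This gave the genes whose levels followed Mov10 most closely. They were Pla2g6, a calcium-independent phospholipase (r = 0.969), Ptbp1 itself (0.962), the de novo DNA methyltransferase Dnmt3b (0.957), the inositol kinase Itpk1 (0.950) and the myosin chaperone Unc45a (0.946). The lowest were cardiac actin Actc1 (-0.933), Igdcc4 (-0.921) and the proton pump subunit Atp6v1g2 (-0.882). Tnrc6b ranked 9893 of 9902, with r = -0.852. All these libraries share the treatment, so the values describe a common difference between treatments and no test is given.

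Pla2g6 and Ptbp1 illustrate that likeness. Pla2g6 in cytoplasm had 18.7, 16.4 and 15.0 TPM after siPTBP1 and 28.3, 18.9 and 13.6 TPM after the double knockdown, against 42.0, 47.3 and 40.4 TPM in siGFP. Ptbp1 in cytoplasm had 143.8, 114.9 and 110.4 TPM after siPTBP1 and 200.2, 113.6 and 113.1 TPM after the double knockdown, against 501.6, 534.2 and 611.0 TPM in siGFP. The double-knockdown library of replicate 1, the highest of its group for Mov10, was also the highest for Pla2g6 and for Ptbp1. With centring within replicate number as well, Ptbp1 (0.990), Pla2g6 (0.986), Dnmt3b (0.971) and Itpk1 (0.967) remained among the first 5 and Cndp2 (0.958) took the place of Unc45a, which ranked 8.

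The wider pathway was examined through 6 lists of genes known for these roles. By limma no member of any list was called in any of the 6 knockdown comparisons. Of the 17 genes of microRNA biogenesis, 1 to 3 had an unadjusted p under 0.05; with the replicate block the helicase gene Ddx17 fell in cytoplasm of the double knockdown (-0.79, adjusted p = 0.183 and 0.00869 with the block) and Tsnax, a subunit of the C3PO nuclease, rose on chromatin (0.90 after the double knockdown, adjusted p = 0.0901 and 0.0151 with the block). Ddx17 in cytoplasm had 30.4, 47.2 and 38.8 TPM after the double knockdown against 53.8, 78.9 and 70.6 TPM in siGFP. Tsnax on chromatin had 53.6, 51.2 and 63.4 TPM after the double knockdown against 28.5, 30.5 and 29.7 TPM in siGFP.

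Of the 18 genes of the CCR4-NOT and PAN2-PAN3 deadenylases and their adaptors, 0 to 2 had an unadjusted p under 0.05. The adaptor Btg2 rose in cytoplasm only with the block, with 23.2, 24.7 and 23.1 TPM after siPTBP1 and 19.8, 20.4 and 17.2 TPM after the double knockdown, against 8.63, 15.3 and 11.6 TPM in siGFP (adjusted p = 0.0741 and 0.438 for these treatments, 0.00363 and 0.0418 with the block). Among 19 genes of decapping, translational repression and P-bodies, 0 to 1 had an unadjusted p under 0.05, and the cap-binding repressor Eif4e2 fell in nucleoplasm with the block (-0.55 after the double knockdown, adjusted p = 0.439 and 0.0232 with the block). Among 20 genes of nonsense-mediated decay and the exon junction complex, 0 to 1 had an unadjusted p under 0.05, and Upf2, which bridges UPF1 to the junction complex, fell with the block in nucleoplasm after siPTBP1 (-0.66, adjusted p = 1 and 0.0279 with the block).

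Of 11 genes that restrict retroelements or belong to the PIWI and Mov10-like families, 0 to 2 had an unadjusted p under 0.05 and none was called with the block either. Apobec3, a cytidine deaminase, had the smallest p in most comparisons, with 28.2, 31.0 and 34.3 TPM in nucleoplasm after the double knockdown against 56.1, 46.1 and 53.9 TPM in siGFP (-0.72, adjusted p = 0.457, 0.0625 with the block). The interferon response list had 18 of its 26 genes tested, and 3 to 6 of these had an unadjusted p under 0.05. With the replicate block, 1 fell in cytoplasm, 5 in nucleoplasm and 4 on chromatin after siPTBP1, and 3, 4 and 2 after the double knockdown; none rose. Of all genes, 0.495%, 0.684% and 0.631% fell with the block after siPTBP1, and 0.951%, 0.704% and 0.475% after the double knockdown. The median differences of the list were -0.19, -0.51 and -0.28 after siPTBP1 in cytoplasm, nucleoplasm and chromatin, and -0.28, -0.46 and -0.33 after the double knockdown, each below the median of all genes. This was not particular to the interferon list. The median of the retroelement list also lay below that of all genes in every comparison. Every other list did so in both nucleoplasm comparisons and in cytoplasm of the double knockdown.

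Within that list, Xaf1 had the smallest unadjusted p by limma in cytoplasm for both knockdowns and on chromatin for siPTBP1. The ubiquitin-like modifier Isg15 had the smallest in the other comparisons. In nucleoplasm it had 2.97, 1.37 and 1.79 TPM after siPTBP1 and 3.47, 1.05 and 1.13 TPM after the double knockdown, against 9.47, 8 and 5.02 TPM in siGFP. The groups did not overlap, and the differences were -1.48 (adjusted p = 0.136, 0.00162 with the block) after siPTBP1 and -1.62 (adjusted p = 0.0791, 0.0007 with the block) after the double knockdown. Xaf1, a pro-apoptotic interferon-stimulated gene, had 5.81, 6.17 and 6.16 TPM on chromatin after siPTBP1 against 11.7, 11.6 and 9.66 TPM in siGFP (-0.76, adjusted p = 0.0685, 0.0121 with the block).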

How the data were processed

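PolyA+ RNA of 27 libraries was sequenced with a stranded kit, per the labels' protocols. The authors deposited 1 table of TPM per gene; the submitters' processing notes name STAR, kallisto and mm10, and tool versions are not given in the sources used here. TPM keeps no depth, so no counting interval is given. Coordinates came from GENCODE M21.

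Genes with at least 1 TPM in at least 3 libraries (20611) were tested with limma 3.58.1 (R 4.3.3) after a log2(TPM + 1) transform: 9 group means, 18 residual degrees of freedom, trend and robust eBayes, two-sided, Benjamini-Hochberg adjustment over all genes, calls at an adjusted p under 0.05. The pseudocount of 1 understates differences of low genes. The fit was checked on simulated data, where it found larger planted changes more often than smaller ones. Those data held no effect shared by libraries of the same replicate number, so the check does not cover that structure. Python 3.11.15 was used for tables.

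The members and lists were chosen with earlier results of these data known. Genes named are the 10 members, Ptbp1, Ptbp2, tested genes within 100 kb of Mov10, the 5 most and 3 least like Mov10, and for each list the members called, or the 1 with the smallest p, not all of which are given.

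Replicate numbers were taken as pairing: over 108 pairs of libraries with the same number, deviations from group means correlated by at least 0.13 (median 0.365), against a median of -0.213 otherwise, and 27 of 27 libraries correlated best with their own number. Centring 3 libraries on their mean makes the other correlations negative when the same-number ones are positive, so that median is no separate support. The highest correlation between different numbers was 0.286. The meaning of a replicate number is not in the labels, and the pairing comes from the data. The series calls the replicates biological, without saying whether fractions share a culture, and p-values measure the spread between these samples. The main fit has no block; alternatives changed the pseudocount, filter, scaling, groups fitted, replicate block and libraries used.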

Additional observations from a re-analysis of the deposited data

How the results depend on the processing

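Mov10 stayed below siGFP in all 6 knockdown comparisons under each of 15 alternatives a comparison, with differences of -2.04 to -1.69 for siPTBP1 and -2.05 to -1.39 for the double knockdown in cytoplasm, -1.88 to -1.45 and -1.91 to -1.48 in nucleoplasm, and -1.50 to -0.96 and -1.21 to -0.73 on chromatin. Among the partners, 0 were called in each comparison, and 1, Tnrc6b, was called with the replicate block for siPTBP1 in cytoplasm and on chromatin and for the double knockdown in all 3 fractions; 1 was called with median-ratio scaling for the double knockdown in cytoplasm and siPTBP1 on chromatin, and 1 with quantile normalization or without all replicate 1 libraries for siPTBP1 on chromatin. Tnrc6b kept its direction in each alternative for the 5 comparisons in which the block called it, and leaving out 1 library at a time gave no call of it, with differences of 1.02 to 1.43 for siPTBP1 on chromatin. For nucleoplasm minus cytoplasm 1 gene, Tnrc6a, was called with the block or without the replicate 1 libraries, against 0 otherwise. For chromatin minus cytoplasm 8 calls became 5 with median-ratio scaling, Dicer1 as lower among them, and 2 with quantile normalization, and for chromatin minus nucleoplasm 8 became 5 and 4. Ago4 is among the 8 and the 5 in both comparisons, and its calls are not read. Under these scalings chromatin minus cytoplasm reversed for Ago2 (-0.045 and -0.052), Dicer1 (-0.50, adjusted p = 0.0334 by limma, and -0.28) and, with median-ratio scaling alone, Upf1 (-0.24); with quantile normalization alone it reversed for Ago3 (-0.073), Ago4 (-0.20) and Tnrc6c (-0.0054). Chromatin minus nucleoplasm reversed for Mov10 (-0.13 and -0.041, against 0.52). The scalings moved the median of all genes from 0.954 to 0.339 and -0.121 for chromatin minus cytoplasm and from 0.679 to 0.212 and -0.0825 for chromatin minus nucleoplasm. Without siGFP replicate 2 on chromatin, Ago4 lost its calls against cytoplasm (adjusted p = 0.0739) and nucleoplasm (0.102), and without siGFP replicate 1 on chromatin Ago2 lost its call against nucleoplasm (0.0649). The block moved the genes called for siPTBP1 to 377, 388 and 505 in cytoplasm, nucleoplasm and chromatin, against 47, 33 and 82 without it, and for the double knockdown to 547, 379 and 436, against 50, 32 and 88. Over the other alternatives these counts ran from 8 to 95, 4 to 111 and 24 to 391 for siPTBP1 and from 0 to 101, 2 to 93 and 6 to 384 for the double knockdown, lowest with only the compared groups fitted and highest without the replicate 1 libraries (cytoplasm, nucleoplasm) or without a filter (chromatin). Single libraries moved them by over 1.5 times: for siPTBP1 in cytoplasm to 22 without its replicate 2 or 3, and to 25 or 24 without siGFP replicate 1 or 3; for the double knockdown there to 27 without its replicate 2 and 21 without siGFP replicate 3. In nucleoplasm the counts were 17 and 19 without replicate 2 of siPTBP1 and of the double knockdown, and 21 and 20 without siGFP replicate 1. On chromatin they were 184 and 181 without replicate 1 of siPTBP1 and of the double knockdown, and 50 without replicate 3 of the double knockdown. Where no cause is given, the cause was not tested. A gene-level TPM does not show how introns were spliced, depth is unknown, and 3 libraries a group limit the power: a gene that was not called is not shown to be equal.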
